A study of Mus musculus with 6 samples.

Results

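The IgLON genes encode neuronal cell adhesion proteins, and their levels were followed in cultured mouse retinal ganglion cells (RGCs), the neurons that send axons through the optic nerve, after viral expression of the transcription factor Sox11 or of its mutant Sox11K91A. The 5 genes were taken by symbol, as *Lsamp*, *Ntm*, *Opcml*, *Negr1* and *Iglon5*, from the 43346 mouse Ensembl genes listed in each library. All 5 passed the filter on low counts that left 15747 genes.

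IgLON proteins carry a few immunoglobulin domains and are tethered to the outer face of the membrane by a glycosylphosphatidylinositol (GPI) anchor, with no part inside the cell. They bind themselves and each other, within a membrane and across the contact between neighbouring cells, and in neurons they bear on neurite outgrowth, synapse number and the adhesion of axons. Since the proteins lack a cytoplasmic tail, they act through partners in the membrane such as fibroblast growth factor receptors, and metalloproteases can shed them from the cell surface.

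The cultures held RGCs purified from mice with an antibody against CD90.1, a form of the Thy1 protein, and grown with forskolin, BDNF and CNTF. The sources give embryonic day 18 for the RNA sequencing cultures but postnatal day 2 for the purification in general, and the deposited tables are named P0. At 4 h after plating, 250000 cells per well received 1.5 μl of AAV2 carrying EGFP alone (control), Sox11 with EGFP, or Sox11K91A with EGFP, the last with alanine in place of lysine at a SUMOylation site. The controls thus received a virus too. Below, "virus libraries", "either virus" and "both viruses" mean the Sox11 and Sox11K91A viruses only, compared with the EGFP virus. RNA was taken at 72 h, and each group has 2 libraries. The promoter of the viral transgenes was not given in the sources used here. The mice were C57BL/6, and no engineered allele is named for any group. The labels speak of 3 RNA samples in duplicate, and nothing says that replicates came from separate cultures. The p-values thus measure the spread between libraries, which need not be that between independent cultures. The replicates were not alike in all genes, since *Xist* was at 400 CPM in control replicate 1 and 95.9 CPM in control replicate 2. The amacrine gene *Gad1* had 1011 and 109 counts in the same order. What set the replicates apart was not tested.

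The libraries held between 27521982 and 37061718 expected counts, the estimated reads per gene. *Sox11* was at 234 and 332 CPM (counts scaled by library size) in the controls, at 9178 and 14590 CPM in the Sox11 libraries, and at 11970 and 7026 CPM in the Sox11K91A libraries, as the labels say. Control replicate 2 and Sox11 replicate 2 stood apart. They had the lowest *Xist* levels, of 95.9 and 254 CPM against 400 to 526 CPM in the other 4 libraries. Of 8 amacrine cell markers, 8 were lower in replicate 2 than in replicate 1 of the controls, 7 in the Sox11 group and 6 in the Sox11K91A group. Their summed level was 710 and 348 TPM in the controls, 531 and 428 TPM with Sox11, and 516 and 522 TPM with Sox11K91A. Most of each sum was 1 gene, *Pax6*, at 586 and 307 TPM, 468 and 402 TPM, and 455 and 465 TPM in the same order. TPM is a unit that also corrects for transcript length. RGC markers were all detected and summed to 8384 to 9090 TPM in the controls, 4013 to 6544 TPM with Sox11 and 5424 to 6680 TPM with Sox11K91A. Most of each RGC sum was *Nefl* and *Sncg*. Of the 10 RGC markers, 4 fell with Sox11 (*Thy1*, *Slc17a6*, *Nefl* and *Nrn1*) and 2 with Sox11K91A (*Slc17a6* and *Nrn1*). *Pou4f1*, *Pou4f2*, *Pou4f3*, *Rbpms*, *Isl1* and *Sncg* did not pass the test in either. Over all genes, 10.2% fell and 9.96% rose with Sox11, and 4.81% fell and 5.81% rose with Sox11K91A. *Thy1* differed widely between the Sox11 replicates, at 341 and 62.0 TPM. Markers of Müller glia and progenitors summed to 280 and 282 TPM in the controls and to between 499 and 525 TPM in the 4 virus libraries. Most of this sum was *Glul*, at 80.6 and 68.6 TPM in the controls and 203 to 248 TPM after, and *Vim*. Of the 6 genes 1 rose, *Glul*, with both viruses. *Rlbp1* (log2 fold changes -2.51 and -2.7) and *Slc1a3* (-2.13 and -1.1) had negative values, *Vim*, *Sox2* and *Hes5* positive ones, and none of these passed. Markers of other cells were low, with sums of up to 30.1 TPM for bipolar cells, 24.8 for the oligodendrocyte lineage, 12.1 for fibroblasts and pericytes, 6.02 for microglia, 5.02 for endothelial cells, 4.46 for astrocytes and 2.32 for photoreceptors. Among their defining genes, *Gfap*, *Olig2*, *Sox10*, *Cx3cr1*, *P2ry12*, *Tmem119* and *Cdh5* never exceeded 3 counts. In these lists *Prkca* and *Slc6a9* fell with both viruses, *S100b* fell and *Pdgfra* rose with Sox11, and *Pecam1* and *Tek* rose with Sox11K91A. In RNA from a whole culture, fewer cells of a type and less RNA per cell cannot be told apart. The part of these shifts in the IgLON values was not tested.

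All IgLON genes but *Iglon5* are among the longest of the mouse genome (GRCm38, GENCODE M21). *Lsamp* (ENSMUSG00000061080.7) spans 2197.3 kb on the plus strand of chromosome 16, chr16:39984361-42181679, and ranked 6 by span among the genes tested. *Opcml* (ENSMUSG00000062257.8), on the plus strand at chr9:27790775-28925410, and *Ntm* (ENSMUSG00000059974.6), on the minus strand at chr9:28994750-29963141, lie tail to tail, 69.3 kb apart. *Negr1* (ENSMUSG00000040037.9) covers 754.7 kb on the plus strand at chr3:156561794-157316445. *Iglon5* (ENSMUSG00000013367.4) is the compact member, with 17.2 kb and 1 transcript on the minus strand at chr7:43472904-43490075. The annotation places 25 other genes inside or across these spans, of which 16 have a row in the tables, and none of them exceeded 16 counts in any library.

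*Lsamp* and *Negr1*, the members that fell, have the RefSeq promoters shown here from 250 bases before the start up to the first annotated exon (GRCm38.p6, read along the gene's strand). *Lsamp* has a distal start, which sets the span of the gene, and an inner start far downstream, so both are given, at chr16:39984114-39984360 and chr16:41532576-41532825. *Negr1* is read at chr3:156561544-156561793, and *Iglon5*, given for contrast, on the minus strand at chr7:43490212-43490461. Capitals mark a match to the SOX binding motif.
Lsamp, distal start: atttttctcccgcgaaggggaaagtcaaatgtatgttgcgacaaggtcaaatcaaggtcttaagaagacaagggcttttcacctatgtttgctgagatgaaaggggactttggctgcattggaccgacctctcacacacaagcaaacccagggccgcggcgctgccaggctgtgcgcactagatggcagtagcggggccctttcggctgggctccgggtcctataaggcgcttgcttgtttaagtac
Lsamp, inner start: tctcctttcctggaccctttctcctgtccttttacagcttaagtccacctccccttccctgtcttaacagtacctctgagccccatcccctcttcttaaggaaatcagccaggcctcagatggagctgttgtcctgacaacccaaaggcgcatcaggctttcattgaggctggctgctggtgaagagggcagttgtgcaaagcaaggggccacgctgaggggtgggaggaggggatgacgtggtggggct
Negr1: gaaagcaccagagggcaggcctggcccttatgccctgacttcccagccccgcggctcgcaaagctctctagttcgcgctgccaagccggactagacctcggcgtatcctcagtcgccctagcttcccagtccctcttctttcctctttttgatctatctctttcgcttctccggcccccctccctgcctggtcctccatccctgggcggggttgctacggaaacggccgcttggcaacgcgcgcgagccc
Iglon5: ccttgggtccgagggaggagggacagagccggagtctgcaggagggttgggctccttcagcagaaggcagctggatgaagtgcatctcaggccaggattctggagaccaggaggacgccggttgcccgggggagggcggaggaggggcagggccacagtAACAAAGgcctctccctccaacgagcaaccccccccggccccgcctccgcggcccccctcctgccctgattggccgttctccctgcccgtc
The motif was searched on both strands as AACAAAG or its variant AACAATG, as ATCAAAG or its variant ATCAATG, as TACAAAG or its variant TACAATG, and as TTCAAAG or its variant TTCAATG, in windows of 300 bases from 250 before to 50 after each start. Of 7 IgLON windows, 1 held it, that of *Iglon5*, as AACAAAG with its first base at position -91 from the start, while 24.6% of 32841 RefSeq windows hold at least 1 match. The *Lsamp* and *Negr1* windows shown above hold no match, which speaks only of these letters in these windows. They differ in base composition, since the *Negr1* window has 68.0% G and C and 29 CpG dinucleotides, and the inner *Lsamp* window 56.3% and 3, beside medians of 52.7% and 7 over all windows.

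On the TPM scale, which allows levels of different genes to be compared, the order in the control cultures was *Iglon5*, *Ntm*, *Negr1*, *Lsamp* and *Opcml*. *Iglon5* was at 134 and 117 TPM, a mean of 125 ± 11.8 (SD, n = 2), above 90.2% of the genes tested. *Ntm* followed at 94.0 and 80.6 TPM, and *Negr1* at 68.8 and 56.9 TPM. The libraries of these 3 genes did not overlap in the controls. *Lsamp* was at 62.6 and 30.9 TPM, so that its first control library lay between those of *Negr1*, and *Opcml* was at 26.7 and 8.55 TPM, above 52.4% of the genes tested. The neighbours *Negr1* and *Lsamp* therefore overlapped, and the other neighbours did not.

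With either virus the order by mean TPM was the same, but *Ntm* and *Iglon5* overlapped. *Ntm* was at 117 and 108 TPM with Sox11, where *Iglon5* was at 117 and 114.5 TPM, so the values of both genes met. With Sox11K91A *Ntm* reached 129.5 and 114 TPM and straddled the *Iglon5* values of 122.2 and 122.1 TPM. *Negr1*, *Lsamp* and *Opcml* followed in that order in both groups. The 5 genes together summed to 385.5 and 293.8 TPM in the controls, 314 and 272 TPM with Sox11, and 315 and 313 TPM with Sox11K91A. These sums overlapped between control and either virus, and the controls alone spanned more than the group means differed.

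**Figure D1:**
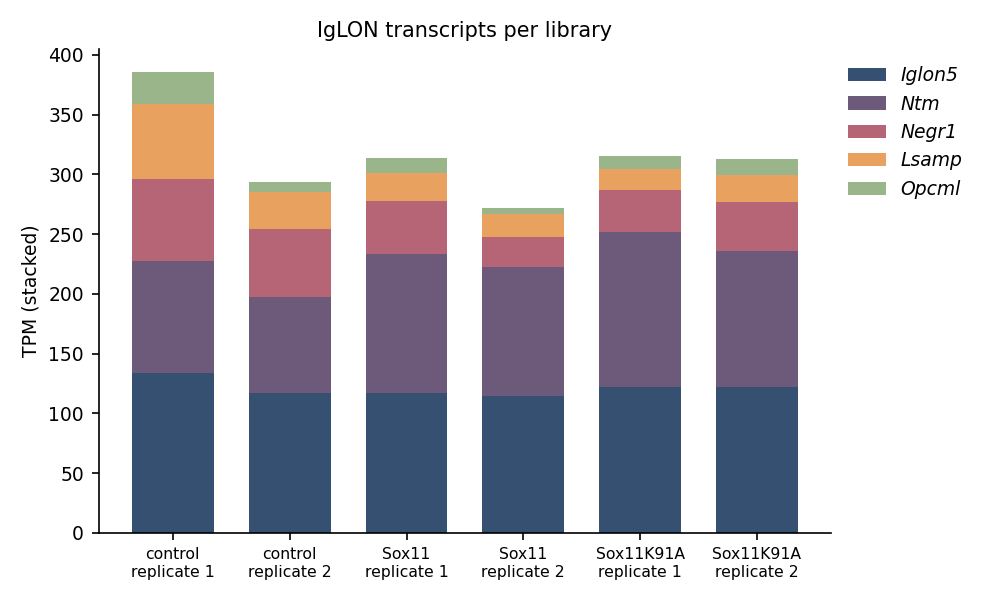
Stacked bars of TPM for the 5 IgLON genes in each of the 6 libraries, with 1 bar per library and 1 colour per gene. The *Ntm* band is wider in the 4 virus libraries than in the controls, and the *Negr1* and *Lsamp* bands are narrower.

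As a share of IgLON transcripts, *Ntm* made up 24.4% and 27.45% in the controls and between 36.4% and 41.1% in the virus libraries, with no overlap. *Lsamp* made up 16.2% and 10.5% of the sum in the controls, 7.52% and 7.37% with Sox11, and 5.54% and 7.38% with Sox11K91A. *Negr1* made up 17.8% and 19.4% in the controls, 13.9% and 9.01% with Sox11, and 11.2% and 13.0% with Sox11K91A. Both genes took a smaller share in each virus library than in either control. *Iglon5* held 34.6% to 42.1% of the sum throughout, with overlapping groups. Shares are tied to each other by construction, and no test was run on them. No background over all genes was set for shares. In CPM, 61.5% of all genes did not overlap between Sox11 and control and 61.9% between Sox11K91A and control, so such separation is common.

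In the comparison of Sox11 with control, which asks what the wild-type factor changes, 2 of the 5 genes passed the test and both fell, *Lsamp* and *Negr1*. The background was 20.1% of 15747 genes called in either direction, with 10.2% down. In the comparison of Sox11K91A with control, 1 of 5 passed, *Lsamp*, which fell, beside a background of 10.6% called and 4.81% down. No IgLON gene passed upward in either comparison, where 9.96% and 5.81% of all genes did. Both comparisons share the control libraries, so they are not independent. Tests are two-sided limma-voom tests whose p-values were adjusted by Benjamini-Hochberg over the 15747 genes, and a gene was called at an FDR under 0.05 and a fold change above 1.2.

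**Figure D2:**
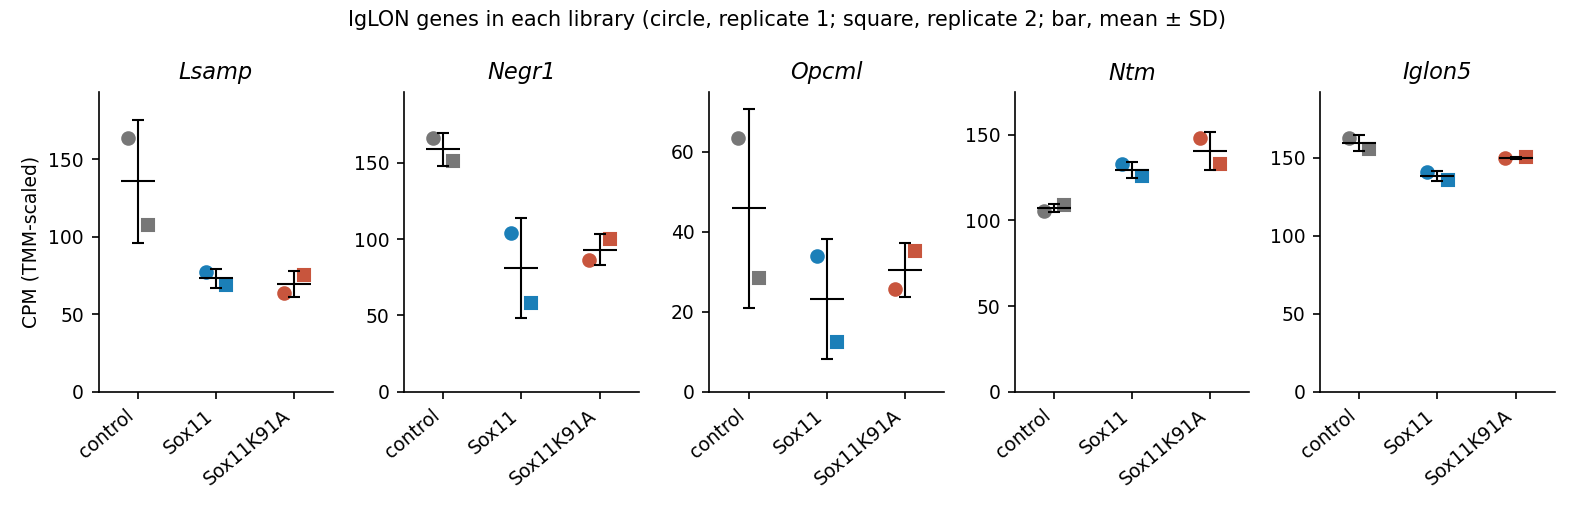
CPM of each IgLON gene by group, with replicate 1 as a circle, replicate 2 as a square, and the mean ± SD (n = 2) as bars. All 4 Sox11 and Sox11K91A libraries lie below both controls for *Lsamp*, *Negr1* and *Iglon5*, and above both for *Ntm*. For *Opcml* the groups overlap. Over all genes, 61.5% did not overlap between Sox11 and control and 61.9% between Sox11K91A and control.

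*Lsamp*, the limbic system-associated membrane protein that marks and guides limbic projections in the brain, was at 164 and 107.5 CPM in the controls, 77.4 and 68.7 CPM with Sox11, and 63.4 and 75.6 CPM with Sox11K91A. Every virus library lay below both controls, and groups that do not overlap with control were common among all genes. The controls were farther apart from each other than the replicates of either virus group. The group means were 136 ± 39.9, 73.0 ± 6.15 and 69.5 ± 8.57 CPM (SD, n = 2 each). *Lsamp* was 1.83-fold lower with Sox11, a log2 fold change of -0.87 (SE 0.22, 95% confidence interval -1.39 to -0.35, limma-voom adjusted p = 0.0369). It was 1.92-fold lower with Sox11K91A, a log2 fold change of -0.94 (SE 0.22, -1.46 to -0.42, limma-voom adjusted p = 0.0423). The Sox11 call was lost without control replicate 1 (log2 fold change -0.56), Sox11 replicate 1 (-0.97) or Sox11 replicate 2 (-0.78). The Sox11K91A call was lost without control replicate 2 (-1.24), Sox11K91A replicate 1 (-0.81) or Sox11K91A replicate 2 (-1.07). Each of these fits leaves 1 library in a group. Calls over all genes dropped as well in each of these Sox11K91A fits. For Sox11 they dropped without Sox11 replicate 1 or 2 and rose without control replicate 1. With both control replicate 2 and Sox11 replicate 2 left out, an alternative chosen after the data were seen, the log2 fold changes were -1.08 with Sox11 (adjusted p = 0.0276) and -1.24 with Sox11K91A (adjusted p = 0.00889). That fit holds 1 control and 1 Sox11 library, which are assumed to vary like the 2 Sox11K91A libraries, the only source of the spread, so its p-values carry little weight here and for the other members.

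*Negr1*, neuronal growth regulator 1, an adhesion protein of axons and dendrites whose locus is known from studies of body weight, was at 166.5 and 151 CPM in the controls, 104 and 57.9 CPM with Sox11, and 86.1 and 100.1 CPM with Sox11K91A. All virus libraries lay below both controls, a separation common among all genes, and the Sox11 replicates were the farthest apart. *Negr1* was 2.04-fold lower with Sox11, a log2 fold change of -1.03 (SE 0.27, 95% confidence interval -1.67 to -0.39, limma-voom adjusted p = 0.0397). With Sox11K91A the log2 fold change was -0.77 (SE 0.27, -1.41 to -0.14), which did not pass (limma-voom adjusted p = 0.108). The Sox11 call was lost without control replicate 1 (log2 fold change -0.97), control replicate 2 (-1.11) or Sox11 replicate 2 (-0.60). It was kept without Sox11 replicate 1 (-1.47). Calls over all genes dropped as well without control replicate 2 or either Sox11 replicate, and rose without control replicate 1. Without both libraries that stood apart, where 1 control and 1 Sox11 library remain, *Negr1* was at -0.67 with Sox11 (adjusted p = 0.0439) and -0.84 with Sox11K91A (adjusted p = 0.0122).

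*Opcml*, the opioid-binding cell adhesion molecule, which is also known as a tumour suppressor in ovarian epithelium, was the most variable member. It was at 63.6 and 28.3 CPM in the controls, 33.9 and 12.5 CPM with Sox11, and 25.6 and 35.2 CPM with Sox11K91A. The groups overlapped, since control replicate 2 lay below Sox11 replicate 1 and Sox11K91A replicate 2. The log2 difference between replicates was 1.17 in the controls and 1.44 with Sox11. The log2 fold change was -1.06 with Sox11 (SE 0.53, 95% confidence interval -2.31 to 0.19, limma-voom adjusted p = 0.19) and -0.48 with Sox11K91A (SE 0.50, -1.67 to 0.71, limma-voom adjusted p = 0.568), and neither passed. The lower library of each of these pairs was control replicate 2 and Sox11 replicate 2, those with the lowest *Xist* and lower amacrine markers. *Opcml* was 28.3 against 12.5 CPM in these, control against Sox11, and 63.6 CPM in the control against 33.9, 25.6 and 35.2 CPM in the virus libraries among the other 4. A block of these libraries takes up spread of *Opcml* that the main fit counts as error, so a pass in that fit carries little weight. No Sox11K91A library is in the block, so its comparison with control leans on control replicate 1. With these 2 libraries as a block, a fit chosen after the data were seen, *Opcml* passed with Sox11 (log2 fold change -1.03, limma-voom adjusted p = 0.0135) and with Sox11K91A (-1.14, adjusted p = 0.0196). With both left out, so that the higher control is the only one and the spread comes from the Sox11K91A pair alone, it was at -0.90 with Sox11 (adjusted p = 0.0538) and -1.08 with Sox11K91A (adjusted p = 0.015). In the block fit *Negr1* passed with Sox11K91A as well, at -1.02 (adjusted p = 0.0274).

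*Ntm*, neurotrimin, an adhesion protein of developing projection neurons, was the member with higher values under the viruses. It was at 105.5 and 109 CPM in the controls, 133 and 126 CPM with Sox11, and 148 and 133 CPM with Sox11K91A. Each virus library lay above both controls, and the replicates of each group were close, with means of 107 ± 2.57, 129.5 ± 4.83 and 140.6 ± 11.1 CPM (SD, n = 2 each). The difference did not pass the test. The log2 fold change was 0.27 with Sox11 (SE 0.13, 95% confidence interval -0.04 to 0.59, limma-voom adjusted p = 0.183) and 0.39 with Sox11K91A (SE 0.13, 0.07 to 0.70, limma-voom adjusted p = 0.104). Libraries that do not overlap were common in these data, in 61.5% of all genes for Sox11 against control and 61.9% for Sox11K91A against control.

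*Iglon5*, whose protein is the target of the autoantibodies in anti-IgLON5 disease, was the steadiest member. It was at 163.0 and 156 CPM in the controls, 141 and 136 CPM with Sox11, and 149.7 and 150.7 CPM with Sox11K91A. All virus libraries were slightly below both controls, a separation common among all genes. The log2 fold change was -0.20 with Sox11 (SE 0.13, 95% confidence interval -0.50 to 0.10, limma-voom adjusted p = 0.279) and -0.09 with Sox11K91A (SE 0.13, -0.39 to 0.21, limma-voom adjusted p = 0.696). Neither passed, and the intervals leave room for a fall of up to about 0.50 on the log2 scale with Sox11.

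The comparison of Sox11K91A with Sox11 asks what the loss of the SUMOylation site adds. None of the 5 genes passed in limma-voom, edgeR or DESeq2. Over all genes limma-voom called 0 (0%) and DESeq2 called 2. In limma-voom 108 of 15747 genes were at an unadjusted p under 0.05. That is a smaller share than the 0.05 that such a test lets through where no gene changes. The test may thus be conservative here, and these 108 genes are not read as a signal. Why they were so few was not tested. The libraries of the groups overlapped for all members but *Iglon5*, with both Sox11K91A values above both Sox11 values, as in 26.6% of all genes. The log2 fold changes, with 95% confidence intervals, were -0.07 (-0.59 to 0.45) for *Lsamp*, 0.12 (-0.20 to 0.43) for *Ntm* and 0.26 (-0.38 to 0.89) for *Negr1*. They were 0.58 (-0.71 to 1.87) for *Opcml* and 0.12 (-0.18 to 0.42) for *Iglon5*. All limma-voom adjusted p-values were 1. The intervals of *Ntm* and *Iglon5* stayed within 0.5 on the log2 scale, whereas that of *Opcml* is wide enough to hold a change larger than 2-fold, so these values do not show that both forms act alike.

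**Figure D3:**
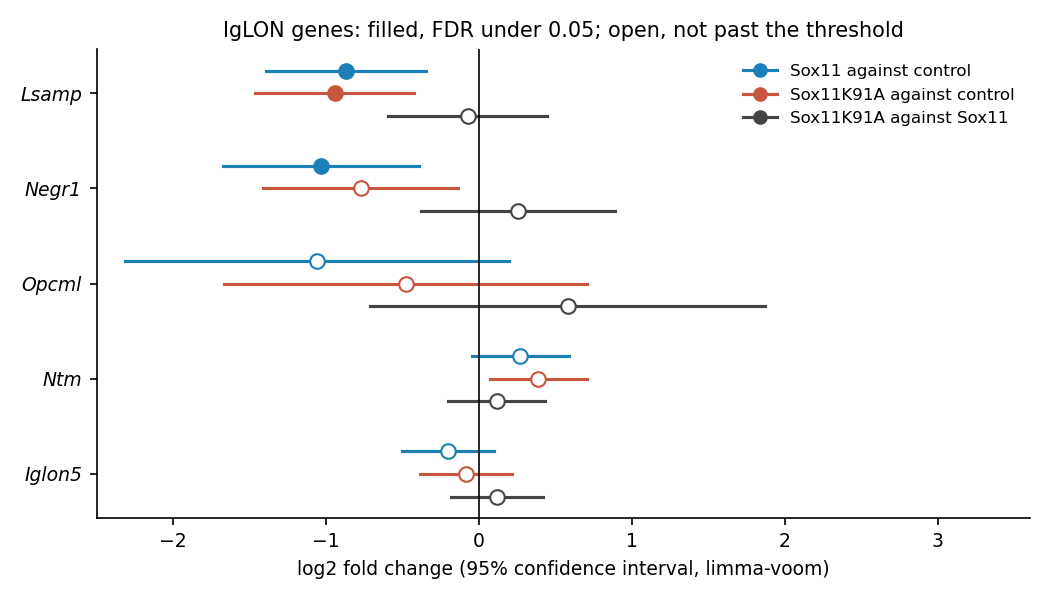
Log2 fold change of each IgLON gene in the 3 comparisons, with 95% confidence intervals from limma-voom, filled where the gene passed. *Lsamp* passed in both comparisons with control and *Negr1* with Sox11, and all intervals of Sox11K91A against Sox11 include 0.

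RSEM reports for each gene a length that averages its transcripts by their estimated abundance, so it moves when the mix of transcripts moves. For *Lsamp*, whose coding transcripts run from 456 to 8794 bases, it was 5369 and 6463 bases in the controls, 6737 and 7124 bases with Sox11, and 7320 and 6559 bases with Sox11K91A. The virus libraries all lay above both controls, but the controls differed from each other by more than the group means, of 5916 ± 774, 6930 ± 273 and 6940 ± 538 bases (SD, n = 2 each). Among 10211 genes whose length varied and could be compared, 30% did not overlap between Sox11 and control and 30.8% between Sox11K91A and control. *Opcml* and *Ntm* overlapped between groups in this length, *Negr1* stayed between 4976 and 4983 bases, and *Iglon5* has 1 length. Because TPM divides by this length and CPM does not, the group means of *Lsamp* lay farther apart in TPM, at 46.7 ± 22.4 in the controls, 21.8 ± 2.53 with Sox11 and 20.3 ± 3.99 with Sox11K91A (SD, n = 2 each).

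**Figure D4:**
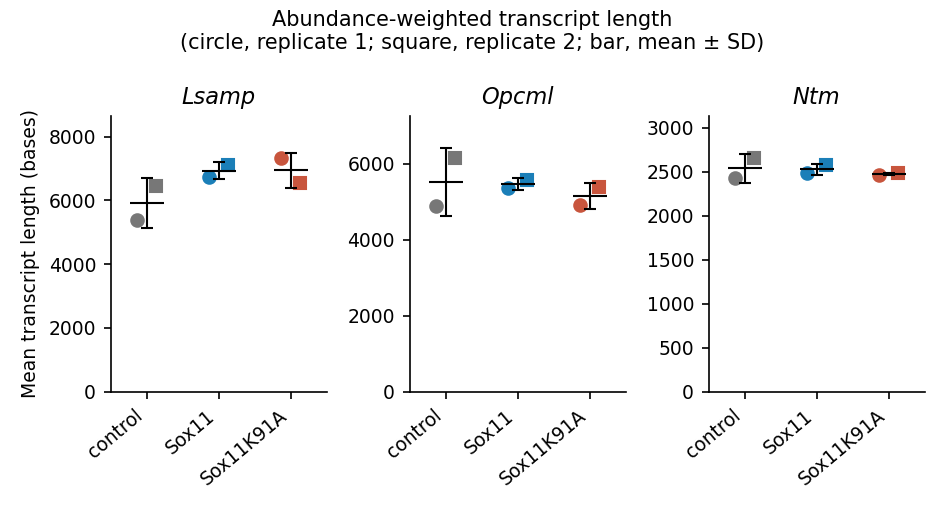
Abundance-weighted transcript length in bases for *Lsamp*, *Opcml* and *Ntm* by group, with replicate 1 as a circle, replicate 2 as a square, and the mean ± SD (n = 2) as bars. The *Lsamp* values with either virus lie above both controls, between 6559 and 7320 bases.

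Across the 6 libraries the members followed one another to different degrees. Pearson's r of log2 CPM was 0.85 for *Lsamp* with *Negr1*, 0.85 for *Opcml* with *Negr1* and 0.87 for *Negr1* with *Iglon5*, while *Ntm* ran against *Lsamp* at -0.90 and against *Negr1* at -0.68. With 3 groups of 2, such values mostly restate the group differences and are a description. The genes most like *Lsamp* were *Flrt2* (r = 0.9989), *Stxbp5* (0.9985) and *Shisa6* (0.9975). *Flrt2*, which encodes a membrane protein of axon guidance and cell adhesion, fell with Sox11 (log2 fold change -0.79). For *Negr1* they were *Sfxn1* (0.9984), *Bcam* (0.9982) and *Fabp3* (0.9981). *Bcam*, an immunoglobulin-domain receptor for laminin, fell with both viruses, with log2 fold changes of -3.2 and -2.36. Closest to *Ntm* were *Mmp14* (0.9870), *Gm9776* (0.9833) and *Zfp105* (0.9831). *Opcml* was followed by *Erich3* (0.9973), *Cfap74* (0.9970) and *Fbxo27* (0.9962), and *Iglon5* by *Atxn1* (0.9862), *Odf2* (0.9856) and *Unc45a* (0.9844). High values are common over 6 libraries, since r exceeded 0.9 for between 3.5% and 14.6% of genes, depending on the member.

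Of 18 genes for known or proposed IgLON partners and sheddases, 17 were tested, all but *Erbb2*. With Sox11 3 rose and 2 fell, and with Sox11K91A 3 rose and 2 fell, beside 20.1% and 10.6% of all genes called in either direction. The median log2 fold changes were 0.63 and 0.50, beside 0.009 and 0.017 over all genes. Between Sox11K91A and Sox11, 0 of the list passed by limma-voom, and 0 were at an unadjusted p under 0.05. *Adam10*, a membrane protease that sheds many neuronal surface proteins, was at 35.2 and 32.6 TPM in the controls, 63.6 and 99.7 TPM with Sox11, and 67.5 and 56.6 TPM with Sox11K91A. It rose with Sox11 (log2 fold change 1.17, SE 0.22, limma-voom adjusted p = 0.0186) and was at 0.84 with Sox11K91A, just outside the threshold (adjusted p = 0.0556). The related *Adam17*, at 0.56 and 0.34, did not pass.

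The secreted gelatinases moved in opposite directions. *Mmp2* was at 3.64 and 4.53 TPM in the controls, 34.5 and 39.95 TPM with Sox11, and 41.8 and 30.9 TPM with Sox11K91A, a rise of 3.07 and 3.06 on the log2 scale (limma-voom adjusted p = 0.00753 and 0.00919). *Mmp9* fell, with log2 fold changes of -2.9 and -2.86 (limma-voom adjusted p = 0.0174 and 0.026), from 3.27 and 3.65 TPM to between 0.31 and 1.04 TPM. *Mmp14*, the membrane protease that activates the *Mmp2* product, was at 1.06 with Sox11 (adjusted p = 0.0637) and rose by 1.37 with Sox11K91A (adjusted p = 0.0432). Among the growth factor receptors, *Fgfr3* rose by 2.62 and 2.92 from 4 and 12 counts in the controls (limma-voom adjusted p = 0.0472 and 0.048). *Fgfr1*, at 0.73 and 0.67, and *Fgfr2*, at 1.2 and 1.13, did not pass. *Npc2*, the cholesterol carrier of the lysosome, at 0.63 and 0.50, did not pass either. *Bsg*, which encodes basigin, an immunoglobulin-domain inducer of metalloproteases, was among the abundant genes at 800.5 and 863 TPM in the controls and fell, with log2 fold changes of -1.03 and -0.85 (limma-voom adjusted p = 0.0197 and 0.0434).

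**Figure D5:**
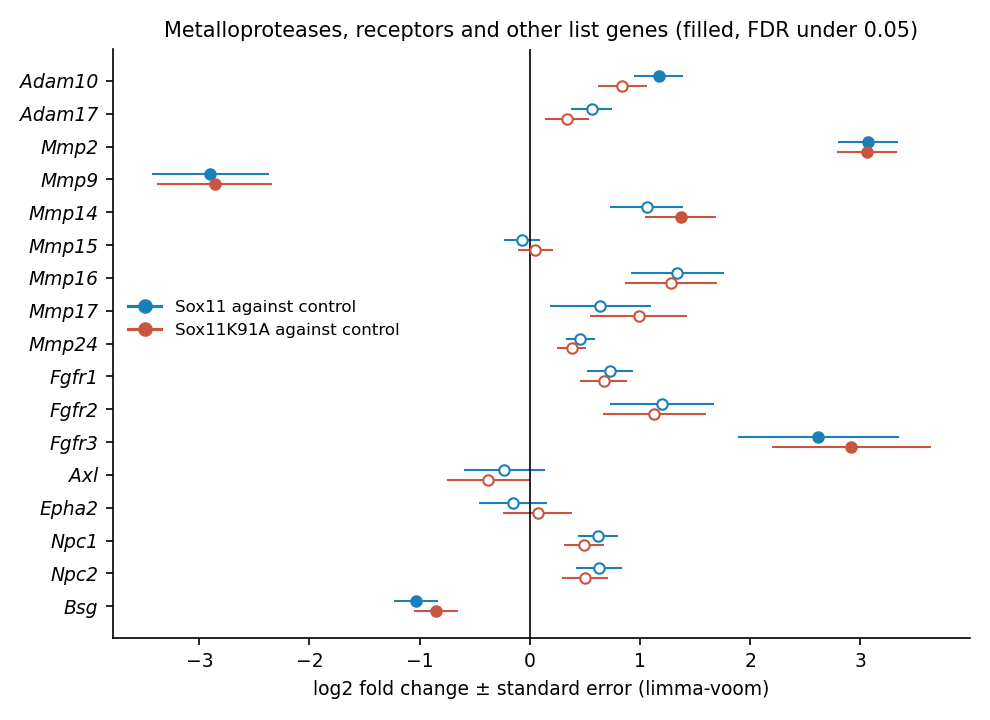
Log2 fold change ± SE (limma-voom) of the 17 tested partner and sheddase genes against control, with Sox11 in blue and Sox11K91A in orange, filled where the gene passed. *Mmp2* and *Fgfr3* lie to the right in both comparisons, and *Mmp9* and *Bsg* to the left.

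Of 28 genes for building and attaching the GPI anchor, which all 5 IgLON proteins carry, 27 were tested. With Sox11 2 passed, beside 20.1% of all genes, and with Sox11K91A 0 passed by limma-voom, beside 10.6%. With Sox11K91A, 2 of the list were at an unadjusted limma-voom p under 0.05, beside 4817 of the 15747 genes tested. With Sox11, *Pgap1*, which remodels the anchor after attachment, rose (log2 fold change 0.71, limma-voom adjusted p = 0.048) and *Dpm3*, a subunit of the dolichol-phosphate mannose synthase, fell (-0.83, adjusted p = 0.0498), both close to the threshold. The medians of the list were 0.03 and -0.06.

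Of 37 other neuronal adhesion genes with immunoglobulin domains, 36 were tested. With Sox11 4 rose and 7 fell, and with Sox11K91A 2 rose and 5 fell, with medians of -0.27 and -0.14. Over all genes 9.96% rose and 10.2% fell with Sox11, and 5.81% rose and 4.81% fell with Sox11K91A. *Igsf9* rose by 2.24 and 2.05 on the log2 scale (limma-voom adjusted p = 0.0121 and 0.019), and *Cadm1*, a synaptic adhesion gene, by 1.13 and 0.95 (adjusted p = 0.013 and 0.0255). *Chl1*, a relative of L1, and *Cadm4* rose with Sox11, by 1.05 and 0.75 (limma-voom adjusted p = 0.0206 and 0.027). They were at 0.65 and 0.66 with Sox11K91A and did not pass (adjusted p = 0.0853 and 0.0508).

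The genes of this list that fell included other GPI-anchored proteins. *Thy1*, which was also used to purify the cells, fell by 2.69 with Sox11 (limma-voom adjusted p = 0.0478), and *Cntn2*, an axonal contactin, fell by 1.3 (adjusted p = 0.0432). At -1.69 and -0.94 neither passed with Sox11K91A (adjusted p = 0.187 and 0.122). A further 5 genes fell with both viruses. With Sox11 and Sox11K91A, the log2 fold changes were -3.48 and -2.72 for *Mcam*, -1.38 and -1.11 for *Sirpa*, and -1.19 and -0.88 for *Nectin2*. They were -0.86 and -0.89 for *Alcam* and -0.68 and -0.75 for *Nectin3*, both genes of cell contacts. The limma-voom adjusted p-values of these 5 genes lay between 0.0135 and 0.0445.

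All members but *Iglon5* are longer than 500 kb, so their direction was set beside that of all long genes tested, which include these members. Of 209 genes tested with a span of at least 500 kb, 17.7% rose and 8.13% fell with Sox11, and 8.13% rose and 4.31% fell with Sox11K91A. Shorter genes had 9.89% up and 10.2% down with Sox11, and 5.82% and 4.84% with Sox11K91A. The median log2 fold change of the long genes was 0.07 and 0.12, while *Lsamp*, *Negr1* and *Opcml* had negative values in both comparisons and *Ntm* positive ones.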

How the data were processed

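RNA selection, strand use, the annotation and the versions of STAR and RSEM are not given in the sources used here. The authors aligned reads to mm10 with STAR and counted them with RSEM, and deposited 1 table per library. The deposited expected counts are RSEM estimates per gene, not normalized. The authors' TPM values are scaled within each library, and the deposited length is the abundance-weighted transcript length. Symbols came from GENCODE M21, which named 42462 of 43346 Ensembl genes, and 26248 numbered entries with 1 count in all and 96 entries with 0 counts were left out.

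Expected counts were rounded, and 30 of 30 IgLON values were already whole (within 0.005). Genes were kept with filterByExpr (edgeR 4.0.16), which left 15747, and scaled with TMM factors of 0.985 to 1.04. limma-voom (limma 3.58.1, R 4.3.3) was fitted on all 6 libraries without a covariate, and genes were called below an FDR of 0.05 with more than 1.2-fold change. In an exact permutation test 2 libraries against 2 cannot reach 0.05, so none was used. Depth, at 27521982 to 37061718 counts, puts 413 or more counts behind each IgLON value, and the spread between replicates sets the errors. CPM uses TMM-scaled library sizes. Named genes were the 5 members, the 3 genes closest to each by Pearson's r among genes averaging 1 CPM or more, and list genes called against control. *Adam17*, *Fgfr1*, *Fgfr2*, *Npc2*, *Erbb2* and cell type markers were named outside this rule, after their values were seen. Members and lists were chosen with earlier results of these data known. Alternatives were edgeR's quasi-likelihood test, DESeq2 1.42.0, quality weights, DESeq2 size factors, library size alone, a looser and a stricter filter on low counts, fold limits of 1 and 1.5, TPM with pseudocounts of 1 and 0.1, 2 groups only, a replicate block and leaving out each library. Fits with a crossed block, a block of the 2 libraries lowest in *Xist*, and without both of them were added after the data were seen. The fits were tested on simulated data. Python 3.11.15, pandas 2.3.3 and matplotlib 3.10.9 made tables and plots.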

Additional observations from a re-analysis of the deposited data

How the results depend on the processing

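Of the 5 genes, the number called for Sox11 against control (2) was 1 with edgeR's quasi-likelihood test (*Negr1* at adjusted p = 0.0522), and 0 with sample quality weights, with limma-trend on log2(TPM + 1) or log2(TPM + 0.1), and with only the 2 groups in the fit. It was 3 with the crossed block and 3 with the block of the libraries low in *Xist* (*Lsamp*, *Opcml* and *Negr1*), stayed at 2 without both of those, and was between 0 and 1 when a library was left out. For Sox11K91A against control (1) it was 2 with DESeq2 (*Lsamp* and *Negr1*), 0 on both TPM scales, 2 with the crossed block, 3 with the block of the libraries low in *Xist* and 3 without both of those (*Lsamp*, *Opcml* and *Negr1*), and between 0 and 1 when a library was left out. Without both low libraries, 1 control and 1 Sox11 library remain and the spread comes from the Sox11K91A pair. With only the 2 groups it stayed at 1, but *Negr1* (adjusted p = 0.0378) took the place of *Lsamp* (0.0579).

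The direction held in all 18 alternatives for *Lsamp* (-1.17 to -0.56 and -1.24 to -0.63), *Negr1* (-1.47 to -0.60 and -1.02 to -0.66), *Ntm* (0.22 to 0.37 and 0.31 to 0.48) and *Iglon5* (-0.25 to -0.11 and -0.12 to -0.03) against control, given for Sox11 and Sox11K91A. *Lsamp* was past the threshold in 11 and 12 of them, *Negr1* in 10 and 5, *Opcml* in 2 and 2, and *Ntm* and *Iglon5* in 0. These counts include the fits added after the data were seen. Every *Opcml* pass came from those fits. So did the *Negr1* passes with Sox11K91A, other than those with DESeq2 and with only the 2 groups. When 1 library was left out, *Opcml* with Sox11K91A ranged from -1.086 without control replicate 2 to 0.081 without control replicate 1, a turn of sign. Between Sox11K91A and Sox11, where nothing was called, leaving out 1 library gave *Lsamp* -0.199 to 0.052 (positive without replicate 1 of either group), *Opcml* -0.177 to 1.276 and *Negr1* -0.168 to 0.693 (both negative without Sox11 replicate 2). *Opcml* and *Negr1* also turned to -0.18 and -0.17 without both libraries low in *Xist*, and *Opcml* to -0.11 with them as a block. The causes were not tested.

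Over all genes, the 3171 calls for Sox11 became 979 with quality weights, 2107 on log2(TPM + 0.1), 1598 with only the 2 groups, 2094 without both libraries low in *Xist*, and between 0 and 3753 when 1 library was left out. The 1672 calls for Sox11K91A became 3144 with DESeq2, 936 and 896 on log2(TPM + 1) and log2(TPM + 0.1), 2753 with the crossed block, 2894 with the *Xist* block, 4108 without both low libraries, and between 0 and 2563 when 1 library was left out. Calls for Sox11 rose in these fits as well, to 4345 with DESeq2, 4076 with the crossed block and 4562 with the *Xist* block. The 0 calls between the viruses became 2 with DESeq2. Deviations of same-numbered libraries from their group means correlated at 0.229 for Sox11 with control and -0.028 for Sox11K91A with control. For Sox11K91A with Sox11 the value was -0.234. No reference was set for such values, so they do not settle whether the numbers pair the libraries. The replicate block gave 2679, 1402 and 0 calls over all genes and changed no IgLON call, with *Lsamp* at -0.87 (adjusted p = 0.0399) and -0.94 (0.0451) and *Negr1* at -1.03 (0.0364) with Sox11. With 2 libraries per group, a change in a variable gene such as *Opcml* can be missed.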
